A study of Sus scrofa with 6 samples.

Results

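The transcripts described here encode 10 heat shock chaperones of the cytosol and the mitochondrion: HSPA8, HSPH1, HSP90AA1, HSP90AB1, HSPB1, DNAJA1, DNAJB1, HSPD1, HSPE1 and HSPA9. They were chosen by name, with earlier results of these data known, as 10 of the 6765 genes that the array's annotation names. All probe sets that it gives to them were taken, 20 of the 23999 probe sets that are not controls. Of these, 19 were bright enough to be tested, and each of the 10 genes kept at least 1. A probe set is a group of short probes against 1 transcript, and the brightest probe set of each gene stands for the gene unless another is named.

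Chaperones bind proteins that are not folded and keep them from clumping. In mammals, members of the HSP70 family such as HSPA8 bind and release a client in a cycle driven by ATP, J-domain proteins such as DNAJA1 and DNAJB1 deliver the client, and HSPH1 resets the cycle by exchanging the nucleotide, after which some clients pass to HSP90. In the mitochondrion HSPA9, also called mortalin, helps pull proteins in, and HSPD1 with its lid HSPE1 folds them in a closed chamber. Oocytes store chaperone transcripts and proteins for the embryo, which makes little RNA of its own in its first cleavages.

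The embryos were made by nuclear transfer (NT): the nucleus of a cultured cell was placed in a pig oocyte from a slaughterhouse. They were injected with an antibody against DJ-1, a redox-sensitive protein known to bind HSPA9 (anti-DJ1 embryos, n = 2), injected with control IgG (IgG embryos, n = 2), or not injected (n = 1). All were collected 28 h after transfer, when many had reached the first cleavage, in pools of 23 to 26 embryos per array. The donor cells, described as cultured fibroblasts of an adult Meishan pig, gave 1 array (n = 1). No gene was deleted or added in any group. There were 2 trials: all 4 groups had an array in trial 1, and each injected group had another in trial 2, so a test against the non-injected embryos or the donor cells rests on 1 array, assumed to vary like the replicated ones.

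Values are MAS5 signals, an intensity with a common scale on all 6 arrays. The highest signal of the Tag controls, probe sets with no pig target, was 21.4 to 47.0, and the embryo arrays correlated with each other at r = 0.936 to 0.982 and with the donor cell array at 0.355 to 0.421 across probe sets. The labels were checked with marker genes. Oocyte markers summed to between 85575 and 152132 on embryo arrays, against 387 on the donor cell array (9 of 12 markers measured). Fibroblast markers summed to between 2976 and 3672 on embryo arrays, against 100309 on the donor cell array (13 of 14 measured), where VIM, SPARC and FN1 were bright but the defining markers DCN and LUM, at 5.58 and 1.71, lay under the Tag controls and the keratins KRT8 and KRT18 stood at 9907 and 2103. Cumulus and granulosa markers, of cells that surround the oocyte, summed to between 1742 and 2359 on embryo arrays. On the donor cell array the sum was 12984, most of it the same keratins. CYP11A1, STAR, AMH, FSHR, PTX3 and TNFAIP6 lay under the Tag controls on every array. INHBA, however, stood at 975 to 1495 on embryo arrays against 739 in donor cells, and FST at 323 to 500 against 22.8. Of the 13 markers measured, 4 to 6 lay above the Tag controls on the embryo arrays and 5 on the donor cell array. Epithelial, endothelial and blood markers summed to between 8847 and 11145 on embryo arrays, against 5043 on the donor cell array. There EPCAM was at 3128 and CDH1 at 749, against 3734 to 5574 and 3057 to 3694 on embryo arrays. The fibroblast markers THY1, LGALS1, S100A4 and TAGLN were bright there, at 6443, 4160, 1237 and 907. COL1A2 and COL3A1 stood at only 459 and 584, against up to 355 and 406 on embryo arrays. The fibroblast label was thus borne out in part, with epithelial markers beside it. Signal at the 3′ end over signal at the 5′ end of EF1A, a measure of how short the labelled RNA is, was 24.2 for anti-DJ1, 23.9 for IgG and 30.0 for non-injected embryos in trial 1. It was 8.20 for anti-DJ1 and 9.34 for IgG embryos in trial 2, and 4.23 for donor cells.

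By the brightest probe sets, embryos and the cells that gave their nuclei differed most in HSPA8, HSPD1 and DNAJA1. By these, HSPA8 and HSPD1 were about 5 times as bright in the donor cells, and DNAJA1 about 4 times as bright in the embryos. With all probe sets of a gene averaged, the log2 changes of HSPA8 and DNAJA1 shrank to -1.09 and 1.12. That of HSP90AA1, at -1.77, was then larger than either. Of the 10 genes, 7 differed (limma, adjusted p under 0.05): 2 were higher in embryos (DNAJA1 and HSPE1) and 5 lower (HSPA8, HSPD1, HSP90AB1, HSP90AA1 and DNAJB1). Across all tested probe sets 36.4% were called higher and 36.5% lower in embryos, so a call in this comparison is common. The chaperones' share called in either direction is near that of all probe sets, with fewer of the 10 higher and more lower. The fit places this comparison at the level of trial 1, since the donor cells were measured in that trial alone. The median log2 change of the 10 genes was -0.62, and that of all tested probe sets -0.02.

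**Figure D1:**
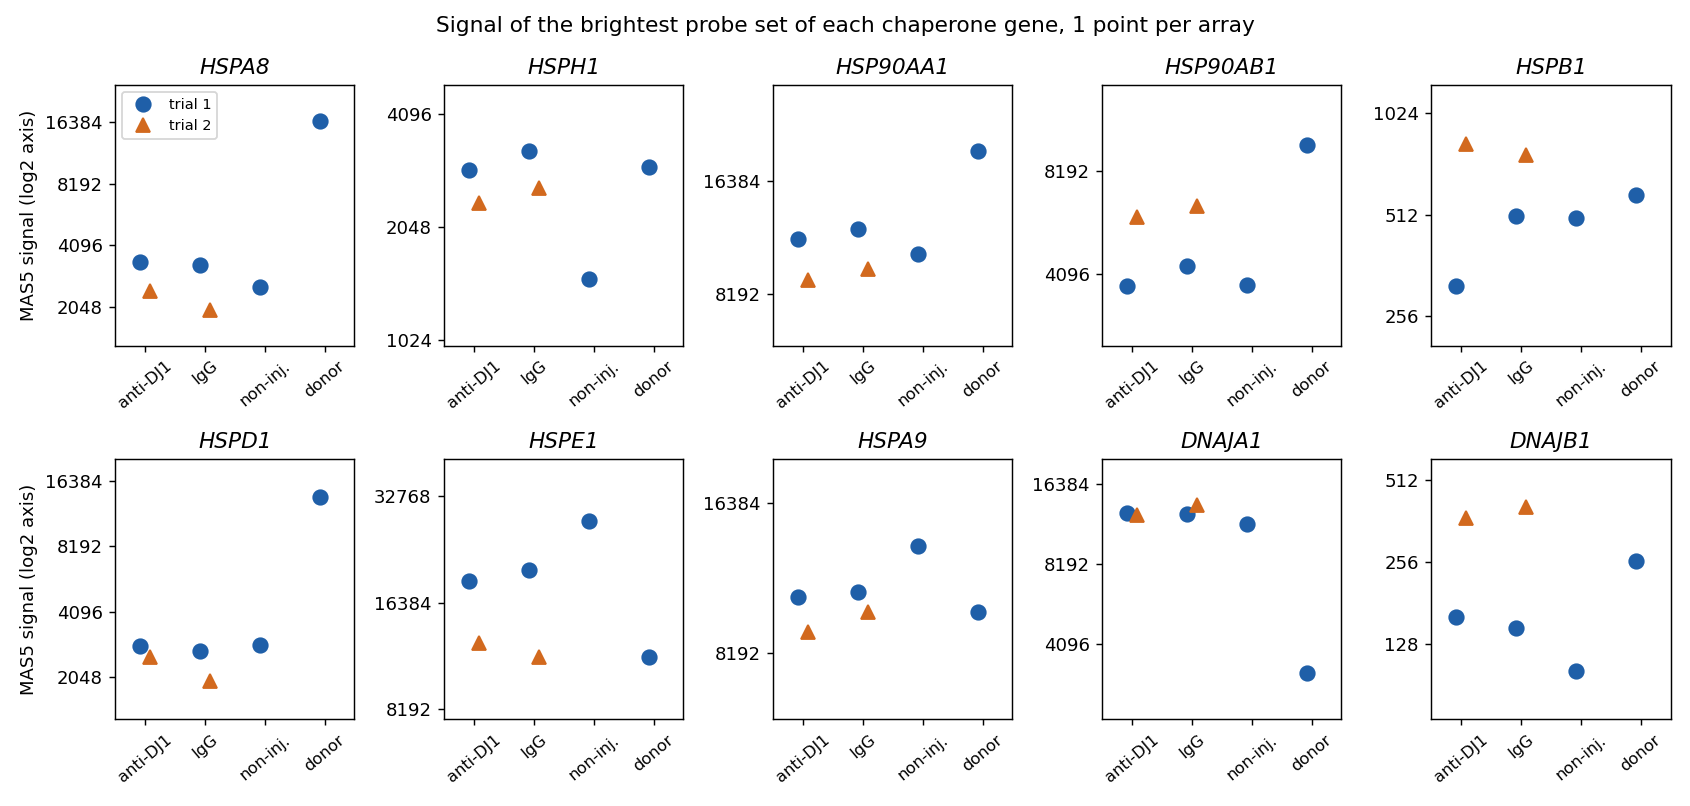
MAS5 signal (vertical axis, log2 scale, a different range in each panel) of the brightest probe set of each of the 10 chaperone genes on the 6 arrays, with 1 point per array, circles for trial 1 and triangles for trial 2. The donor cell array stands above every embryo array for HSPA8, HSP90AA1, HSP90AB1 and HSPD1 and below every embryo array for DNAJA1, and the non-injected array is the lowest of all for HSPH1.

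Among the cytosolic HSP70 machinery, HSPA8, the constitutive HSP70, had signals of 3407 and 2446 in anti-DJ1 embryos (trials 1 and 2), 3292 and 1983 in IgG embryos and 2574 in non-injected embryos, against 16648 in donor cells. All 5 embryo arrays lay far below the donor cell array, a log2 change of -2.44 ± 0.13 (SE of the fit; 5.42-fold lower, limma, adjusted p = 6.50e-09). The other 3 HSPA8 probe sets differed in size, and by order of brightness their changes were -0.10 (adjusted p = 0.619), -0.54 (0.0206) and -1.27 (8.05e-04). The first of these had signals of 1728 and 886 in anti-DJ1, 1953 and 781 in IgG and 1536 in non-injected embryos, against 1849 in donor cells, so that its embryo arrays lay on both sides of the donor cells.

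DNAJA1, a J-domain protein that delivers clients to HSP70, went the other way. Its signals were 12812 and 12599 in anti-DJ1 embryos, 12647 and 13678 in IgG embryos and 11574 in non-injected embryos, against 3173 in donor cells. The 5 embryo arrays were close to each other and all above the donor cell array, a log2 change of 1.96 ± 0.11 (3.88-fold higher, adjusted p = 1.11e-08). A second, dimmer DNAJA1 probe set changed by 0.29 (adjusted p = 0.136).

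DNAJB1, the J-domain protein whose transcript is induced by heat shock in mammals, was dim. It had signals of 160 and 371 in anti-DJ1 embryos, 146 and 410.1 in IgG embryos and 101 in non-injected embryos, against 259 in donor cells. The 3 embryo arrays of trial 1 lay below the donor cells and both of trial 2 above them, and the log2 change of -0.93 ± 0.26 (adjusted p = 0.00623) is that of trial 1. It did not pass without the term for the trial (-0.49, adjusted p = 0.598), under quantile normalization (-0.18, adjusted p = 0.556) or with a common 75th percentile (-0.31, adjusted p = 0.303).

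HSPH1, the HSP110 that exchanges nucleotide on HSP70, had signals of 2908 and 2377 in anti-DJ1 embryos, 3265 and 2610.2 in IgG embryos and 1489 in non-injected embryos, against 2959 in donor cells. Its change of -0.29 from the donor cells (adjusted p = 0.0716) did not pass, and its direction depended on the scaling: it was -0.41 under quantile normalization (adjusted p = 0.0127) and 0.34 with a common 75th percentile (adjusted p = 0.036). The donor cells stood within the range of the injected embryos. The non-injected array alone differed from the donor cells by -0.99 on the log2 scale, with 1 array on each side.

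Both cytosolic HSP90 genes were lower in embryos. HSP90AB1, the constitutive form, had signals of 3791 and 6009 in anti-DJ1 embryos, 4320.01 and 6499 in IgG embryos and 3813 in non-injected embryos, against 9785 in donor cells. All embryo arrays lay below the donor cells, by 1.30 ± 0.12 on the log2 scale (2.46-fold lower, adjusted p = 8.86e-07).

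HSP90AA1, the form that is induced by stress in mammals, had signals of 11471 and 8973 in anti-DJ1 embryos, 12235 and 9567 in IgG embryos and 10488 in non-injected embryos, against 19738 in donor cells. It was 1.73-fold lower in embryos (log2 change -0.79 ± 0.11, adjusted p = 3.28e-05), but did not pass with a common 75th percentile (-0.16, adjusted p = 0.232). Without the term for the trial neither HSP90 gene passed (adjusted p = 0.0607 for HSP90AB1 and 0.0519 for HSP90AA1).

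The 5 probe sets of HSP90AA1 disagreed. The second brightest had signals of 212 and 191 in anti-DJ1, 233 and 196 in IgG and 207 in non-injected embryos, against 5774 in donor cells, a log2 change of -4.71 (26.1-fold lower, adjusted p = 1.06e-09). The dimmest was at 40.2 to 90.6 on the embryo arrays, against 1096 in donor cells. Its fitted log2 change was -3.93 (15.2-fold lower, adjusted p = 1.10e-06), and 4 of 5 embryo arrays lay above their Tag controls. The third brightest ran the opposite way, at 392 and 406 in anti-DJ1, 350.2 and 667 in IgG and 274 in non-injected embryos, against 141 in donor cells (1.22, adjusted p = 0.00109). The fourth changed by -0.63 (adjusted p = 0.0331). Thus 4 of the 5 were lower and 1 higher in embryos, from -4.71 to 1.22, and which transcript forms each measures is not given in the annotation used here.

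HSPB1, also called HSP27, is a small heat shock protein that holds unfolded clients without ATP. Its signals were 315 and 825 in anti-DJ1 embryos, 509 and 765 in IgG embryos and 499 in non-injected embryos, against 586 in donor cells. The embryo arrays lay on both sides of the donor cells, and the change of -0.44 (adjusted p = 0.106) did not pass and had the opposite sign under quantile normalization (0.09) and with a common 75th percentile (0.19).

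The mitochondrial partners moved apart. HSPD1, the HSP60 whose rings form the folding chamber, had signals of 2844 and 2544 in anti-DJ1 embryos, 2712 and 1962 in IgG embryos and 2872 in non-injected embryos, against 13785 in donor cells, a log2 change of -2.29 (95% confidence interval -2.60 to -1.99, 4.90-fold lower, adjusted p = 1.51e-08). HSPE1, the HSP10 that caps those rings, had signals of 18890.2 and 12596 in anti-DJ1 embryos, 20292 and 11455 in IgG embryos and 27950.0 in non-injected embryos, against 11492 in donor cells. Its change was 0.94 (0.69 to 1.19, 1.92-fold higher, adjusted p = 9.98e-06), so that the intervals of HSPD1 and HSPE1 lie on opposite sides of 0.

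The 3 embryo arrays of trial 1 were well above the donor cells for HSPE1, while in trial 2 the anti-DJ1 array was slightly above and the IgG array level with them. HSPE1 did not pass without the term for the trial (0.70, adjusted p = 0.215). HSPD1 and HSPE1 are neighbours on chromosome 15 in the RefSeq gene table, with no gene between them.

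HSPA9, the mitochondrial HSP70, had signals of 10591 and 9033 in anti-DJ1 embryos, 10882 and 9880 in IgG embryos and 13415 in non-injected embryos, against 9885 in donor cells. It did not pass, at 0.23 (adjusted p = 0.0905), and its direction turned under quantile normalization (-0.20) and held with a common 75th percentile (0.86, adjusted p = 8.98e-06). A second, dimmer probe set changed by -0.31 (adjusted p = 0.117). The third was too dim to be tested, at 23.0 to 53.1, and lay above the Tag controls on 3 of 6 arrays.

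**Figure D2:**
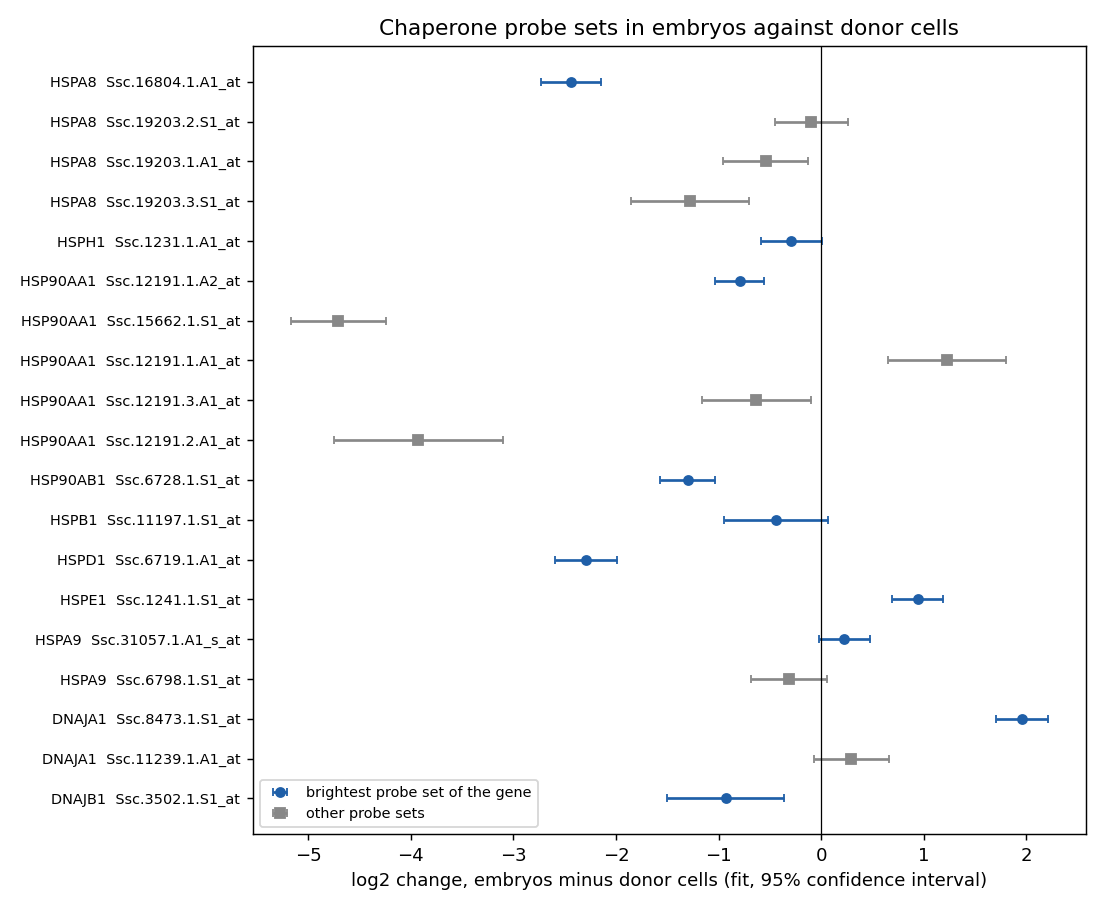
Log2 change in embryos minus donor cells (horizontal axis, fitted value with its 95% confidence interval) for the 19 tested chaperone probe sets, with circles for the brightest probe set of each gene and squares for the others. HSPA8 at -2.44 and HSPD1 at -2.29 lie left of 0, DNAJA1 at 1.96 and HSPE1 at 0.94 right of it, and the probe sets of HSP90AA1 spread from -4.71 to 1.22.

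Over the 10 genes, all 5 embryo arrays lay above the donor cell array for 1 (DNAJA1) and below it for 4 (HSPA8, HSP90AA1, HSP90AB1 and HSPD1), where this holds for 40.9% and 39.4% of all tested probe sets. HSPA8, HSPD1 and DNAJA1 passed under all 11 settings other than those that left out an array, and also in each of those. Other scalings moved the median of all probe sets in this comparison by 0.44 (quantile) and 0.62 (common 75th percentile), and turned the split of all calls from 5248 higher and 5253 lower into 6239 and 4198, and 6707 and 3911. Among the chaperones the split of 2 higher and 5 lower stayed at 2 and 5 under quantile normalization and became 4 and 3 with a common 75th percentile. In pools of whole embryos and of cells, fewer cells of a type and less RNA per cell cannot be told apart. The 3′ to 5′ ratios also differed between embryos and donor cells, in no common direction: EF1A was at 8.20 to 30.0 on the embryo arrays against 4.23 in donor cells, actin at 45.0 to 665 against 141, and GAPDH at 6.65 to 17.6 against 21.1. Their part in these changes was not tested.

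Injected embryos had more HSPH1 transcript than embryos that were not injected, whichever antibody they received. Against 1489 in non-injected embryos, HSPH1 was 1.96-fold higher in anti-DJ1 embryos (log2 change 0.97 ± 0.16, 95% confidence interval 0.63 to 1.31, limma, adjusted p = 0.0134) and 2.18-fold higher in IgG embryos (1.12 ± 0.16, 0.78 to 1.46, adjusted p = 0.0077). It was the 1 gene of the 10 called in each comparison, where 1.26% of all tested probe sets were called higher in anti-DJ1 and 0.917% higher in IgG embryos. Both comparisons use the same non-injected array, so they are not independent. Within trial 1 alone the differences were 0.96 for the anti-DJ1 and 1.13 for the IgG array, and all 4 injected arrays lay above the non-injected one. The call was lost without the term for the trial (0.82, adjusted p = 0.996 in anti-DJ1, and 0.97, adjusted p = 0.994 in IgG embryos) and without the mean-variance trend (adjusted p = 0.301 in IgG embryos), where 0 of all probe sets passed in either comparison. It was also lost when any 1 of the injected arrays was left out, in fits that have no term for the trial, with changes of 0.67 to 0.96 in anti-DJ1 and 0.81 to 1.13 in IgG embryos.

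HSPE1 and HSPA9, both mitochondrial, were lower on every injected array than in non-injected embryos but did not pass. HSPE1, with the signals given above, changed by -0.51 in anti-DJ1 embryos (adjusted p = 0.0686) and -0.52 in IgG embryos (adjusted p = 0.0738). It passed with a larger pseudocount (adjusted p = 0.0391 and 0.0399) and when testing was limited to the brightest 40% (0.0176 and 0.0161). HSPA9 stood at -0.36 (adjusted p = 0.160) and -0.28 (0.296), and the sign turned when all its probe sets were averaged (0.04 and 0.06). The second HSPA9 probe set ran the opposite way, with signals of 1508 and 2176 in anti-DJ1 and 1749 and 1757 in IgG embryos, against 1210.1 in non-injected embryos. It lay above the non-injected array on all 4 injected arrays, by 0.45 in anti-DJ1 (95% confidence interval 0.02 to 0.87, adjusted p = 0.247) and 0.40 in IgG embryos (-0.03 to 0.83, adjusted p = 0.323).

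For the other genes the intervals of both comparisons spanned 0, save HSPA8 in anti-DJ1 embryos at 0.47 (0.13 to 0.80, adjusted p = 0.135). In IgG embryos HSPA8 stood at 0.29 (-0.05 to 0.63, adjusted p = 0.368). DNAJB1 was at 0.57 (adjusted p = 0.341) and 0.58 (0.353), with all 4 injected arrays above the non-injected array. HSP90AA1 was at 0.13 and 0.22, DNAJA1 at 0.11 and 0.16 (its second probe set at -0.24 in each), HSP90AB1 at 0.01 and 0.16, HSPD1 at 0.06 and -0.16, and HSPB1 at -0.46 and -0.17 (adjusted p from 0.396 to 0.978), in anti-DJ1 and in IgG embryos.

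By their brightest probe sets, all 4 injected arrays lay above the non-injected array for 3 genes (HSPH1, DNAJA1 and DNAJB1) and below it for 3 (HSPD1, HSPE1 and HSPA9), where 26.3% and 19.9% of all tested probe sets did so. The non-injected array had the highest 3′ to 5′ ratio of EF1A, with 24.2 for the anti-DJ1 and 23.9 for the IgG array of trial 1 against its 30.0. The same ratio of actin was 265 for the anti-DJ1 and 258 for the IgG array of trial 1, against 665 for the non-injected array, and that of GAPDH 17.6 and 7.46 against 8.49. The part of these ratios in the differences was not tested.

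**Figure D3:**
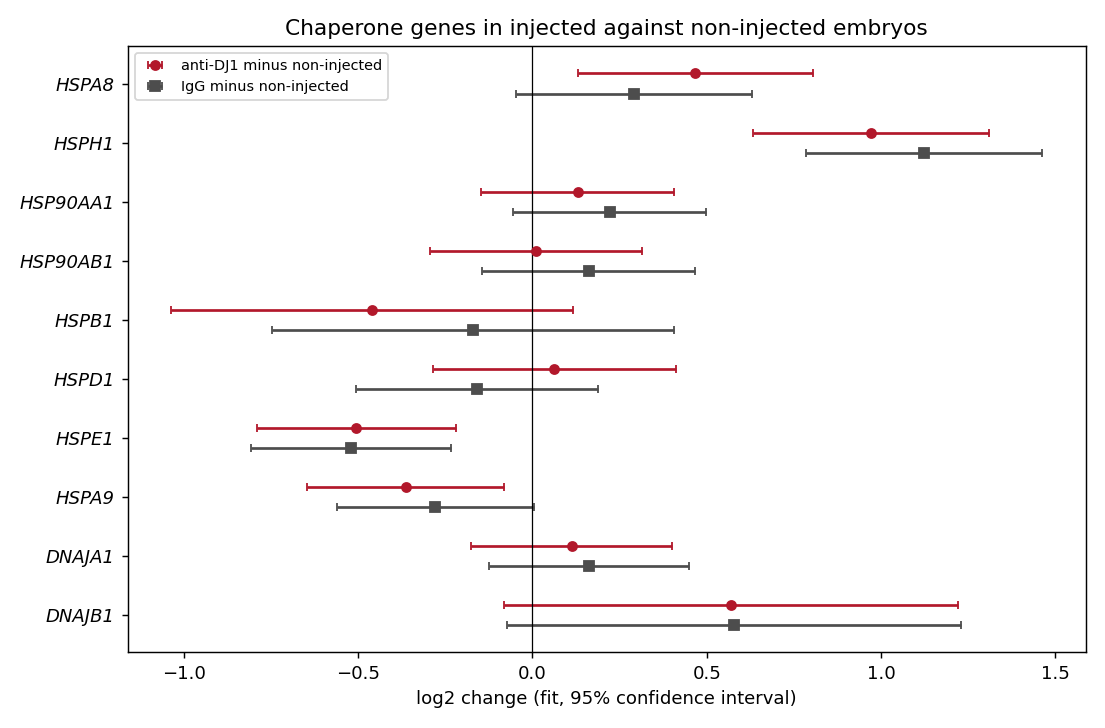
Log2 change against non-injected embryos (horizontal axis, fitted value with its 95% confidence interval) of the 10 chaperone genes, with circles for anti-DJ1 and squares for IgG embryos, which share the 1 non-injected array. HSPH1 lies right of 0 at 0.97 and 1.12 and HSPE1 left of it at -0.51 and -0.52, and for each gene the intervals of anti-DJ1 and IgG embryos overlap.

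Setting anti-DJ1 embryos against IgG embryos of the same trial asks what the antibody to DJ-1 does to these transcripts. No chaperone passed, and no probe set of the 14399 tested did (0% called, limma, with 838 at an unadjusted p under 0.05). The 10 genes lay between -0.29 (HSPB1) and 0.22 (HSPD1), with 3 positive, a median of -0.07 and adjusted p from 0.902 to 0.996. At an unadjusted p under 0.05 the count was also 0 of 10 genes and 0 of 19 probe sets. HSPD1, at 2844 and 2544 in anti-DJ1 against 2712 and 1962 in IgG embryos, was higher in both trials, by 0.07 and 0.37 (95% confidence interval -0.04 to 0.48). HSPA8 was also higher in both, by 0.05 and 0.30 (-0.08 to 0.43). The second brightest HSPA8 probe set differed in sign, at -0.18 in trial 1 and 0.18 in trial 2.

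HSPA9, the chaperone that binds DJ-1, changed by -0.08 (-0.30 to 0.13), with -0.04 in trial 1 and -0.13 in trial 2. Its second probe set was at 0.05, with -0.21 in trial 1 and 0.31 in trial 2. HSPH1 was at -0.15 (-0.41 to 0.11), HSP90AB1 at -0.15 (-0.38 to 0.08) and HSP90AA1 at -0.09 (-0.30 to 0.12), each lower in both trials. The other HSP90AA1 probe sets went both ways, from -0.27 to 0.23. The one at 0.23 was higher in both trials, by 0.31 and 0.15. HSPB1, at 315 and 825 in anti-DJ1 against 509 and 765 in IgG embryos, was lower in trial 1 by 0.68 and higher in trial 2 by 0.11. HSPE1 at 0.02, DNAJA1 at -0.05 and DNAJB1 at -0.0082 likewise differed in sign between the trials. For DNAJA1 the sign turned under quantile normalization (0.03). The median interval of the 10 genes reached 1.18-fold to either side, and that of HSPB1 ran wider, from -0.73 to 0.15. A call also needs an adjusted p under 0.05 over all tested probe sets. Changes smaller than 1.18-fold, and also larger ones, could therefore have been missed.

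**Figure D4:**
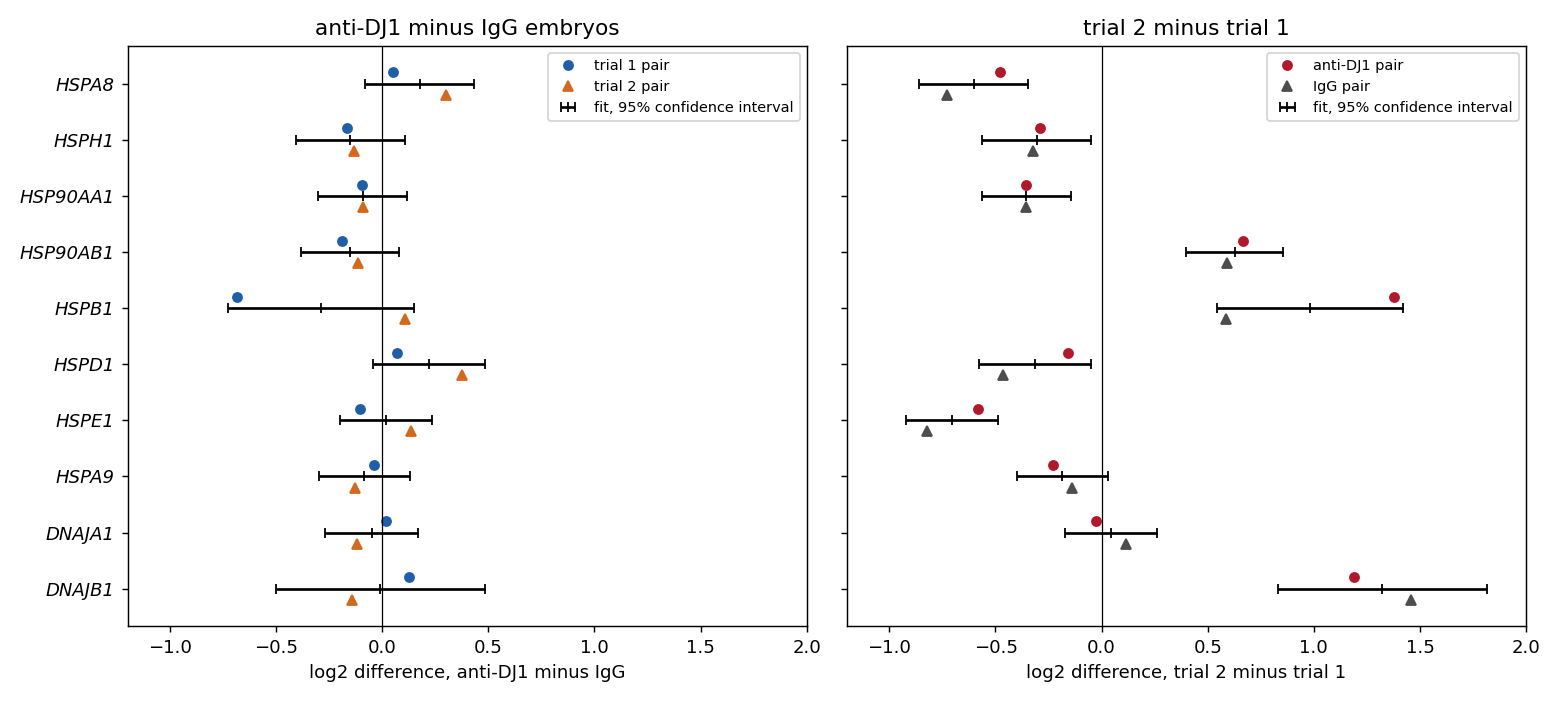
Log2 difference (horizontal axis) of the 10 chaperone genes between anti-DJ1 and IgG embryos (left panel, circles for the trial 1 pair and triangles for the trial 2 pair) and between trial 2 and trial 1 (right panel, circles for the anti-DJ1 pair and triangles for the IgG pair), with bars for the fitted value and its 95% confidence interval. In the left panel every interval spans 0, and in the right panel DNAJB1, HSPB1 and HSP90AB1 lie right of 0 and HSPE1, HSPA8 and HSP90AA1 left of it.

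The chaperones also differed between the trials. Of the 10 genes, 6 were called between trial 2 and trial 1: DNAJB1, HSPB1 and HSP90AB1 higher in trial 2, and HSPE1, HSPA8 and HSP90AA1 lower. Across all tested probe sets 18.9% were called higher and 13.4% lower in trial 2, and the median change was -0.25 for the 10 genes and 0.14 for all. DNAJB1, at 371 (anti-DJ1) and 410.1 (IgG) in trial 2 against 160 (anti-DJ1) and 146 (IgG) in trial 1, was 2.50-fold higher in trial 2 (log2 change 1.32 ± 0.23, limma, adjusted p = 0.00105). HSPB1 was 1.97-fold higher (0.98 ± 0.20, adjusted p = 0.00305) and HSP90AB1 1.54-fold higher (0.63 ± 0.11, adjusted p = 9.83e-04).

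HSPE1, at 12596 (anti-DJ1) and 11455 (IgG) in trial 2 against 18890.2 (anti-DJ1) and 20292 (IgG) in trial 1, fell by 0.70 on the log2 scale (adjusted p = 3.16e-04). HSPA8 changed by -0.60 (adjusted p = 0.00228) and HSP90AA1 by -0.35 (adjusted p = 0.0145). The second brightest HSPA8 probe set changed more, by -1.14 (limma, adjusted p = 1.49e-04), while the remaining ones, at -0.12 and -0.61, did not pass. The other HSP90AA1 probe sets went both ways, from -0.38 to 0.48, and none passed. Under quantile normalization HSPE1 (-0.25, adjusted p = 0.125) and HSP90AA1 (-0.03, adjusted p = 0.861) did not pass. HSPD1 (-0.31), HSPH1 (-0.31) and HSPA9 (-0.18) did not pass, and with DNAJA1 (0.04) the trials overlapped. The second probe sets of HSPA9 (0.27) and DNAJA1 (-0.38) had the opposite sign and did not pass either. By the brightest probe sets, under 9 other settings, HSPD1 and HSPH1 passed in 2 each and HSPA9 and DNAJA1 in 1 each. Across these settings HSPD1 ranged from -0.56 to -0.31, HSPH1 from -0.55 to -0.30, HSPA9 from -0.43 to 0.13 and DNAJA1 from -0.20 to 0.54.

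Both arrays of trial 2 lay above both of trial 1 for 3 of the 10 genes and below them for 6, where 40.5% and 26.1% of all tested probe sets did so. Without the mean-variance trend 0 of the 10 genes and 0 of all probe sets were called. The 3′ to 5′ ratio of EF1A was 8.20 and 9.34 in trial 2 against 24.2 and 23.9 in trial 1, and that of actin 45.0 and 68.4 against 265 and 258. That of GAPDH was 6.65 (anti-DJ1) and 16.1 (IgG) in trial 2 against 17.6 and 7.46 in trial 1. Their part in these differences was not tested, and trial, embryo pool and RNA quality cannot be told apart here.

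Other chaperone genes were read from 6 lists of partners, 76 genes measured of 116 listed. Between anti-DJ1 and IgG embryos 0 of the 76 passed, as against non-injected embryos, where anti-DJ1 and IgG embryos again had 0 each (limma, with 6 for anti-DJ1 against IgG and 9 for each comparison with non-injected embryos at an unadjusted p under 0.05). Their medians were -0.02 for anti-DJ1 against IgG, -0.06 for anti-DJ1 against non-injected and 0.01 for IgG against non-injected embryos. Among the HSP70 family, HSP70.2, whose RefSeq synonyms are the stress-inducible HSPA1A and HSPA1B, had signals of 3075 and 4194 in anti-DJ1 and 3151 and 3186 in IgG embryos, against 2349 in non-injected embryos (0.50, adjusted p = 0.146, and 0.32, adjusted p = 0.377). STIP1, the adaptor that joins HSP70 to HSP90, had 713 and 787 in anti-DJ1 and 701 and 806 in IgG embryos, against 453 in non-injected embryos (0.64 in each, adjusted p = 0.127 and 0.134). Thus both stood above the non-injected array on all 4 injected arrays, as HSPH1 and 26.3% of all tested probe sets did, but neither passed.

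In the endoplasmic reticulum list, SERPINH1, the collagen chaperone, was at 0.94 (adjusted p = 0.101) in anti-DJ1 and 0.99 (0.0992) in IgG embryos against non-injected embryos. CANX, a chaperone of glycoproteins, was at 0.61 (0.0825) and 0.40 (0.243). DNAJB14 was at 0.70 (0.0898) and 0.61 (0.141), DNAJC2 at 0.66 (0.124) and 0.56 (0.192), the prefoldin subunit VBP1 at 0.57 (0.145) and 0.63 (0.124), and the mitochondrial protease YME1L1 at 0.37 (0.447) and 0.55 (0.258). Other partners lay on the other side of 0, and none passed. HSPA12A, a distant HSP70 relative, was at -0.70 (0.0956) in anti-DJ1 and -0.28 (0.523) in IgG embryos, CALR, a glycoprotein chaperone, at -0.51 (0.313) and -0.46 (0.377), and the HSP90 co-chaperone PTGES3 at -0.85 (0.316) and -0.49 (0.600). Of the 76 partners, 34 were positive in anti-DJ1 and 39 in IgG embryos against non-injected embryos, and of the 8 heat shock factors and small heat shock proteins 0 and 3.

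In anti-DJ1 against IgG embryos 35 of the 76 were positive, and the smallest p in the list of heat shock factors and small heat shock proteins were those of HSPB2 (-1.70, adjusted p = 0.805), HSF2 (-1.36, adjusted p = 0.836) and CRYAB (-0.88, adjusted p = 0.853). All 3 were dim, so these sizes are uncertain. Signals of HSPB2 were 37.1 and 16.7 (anti-DJ1), against 84.3 and 101 (IgG). Those of HSF2 were 23.6 and 5.08 (anti-DJ1) against 43.7 and 32.4 (IgG), and those of CRYAB 14.9 and 40.9 (anti-DJ1) against 40.5 and 62.2 (IgG). Of the anti-DJ1 arrays, 1 lay above its Tag controls for HSPB2, 0 for HSF2 and 1 for CRYAB. FKBP4, an immunophilin of the HSP90 co-chaperone list, was at -0.91 (adjusted p = 0.816). In the HSP70 list the smallest p went both ways. DNAJB4 (0.57, limma, adjusted p = 0.853) and DNAJC5 (0.69, 0.915) were positive, and HSPA12A (-0.42, 0.836) and DNAJB2 (-0.45, 0.853) negative.

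Between embryos and donor cells 57 of the 76 partners passed, 19 higher and 38 lower in embryos, with a median of -0.64 beside -0.02 for all tested probe sets. Of all tested probe sets, 36.4% were called higher and 36.5% lower, so the counts of each list below stand beside a high share. The HSP70 family and its co-chaperones had 7 higher and 8 lower of 21. DNAJC9, a J-domain protein that also binds histones, was higher in embryos (3.43, adjusted p = 6.37e-10), and DNAJB2, at 379 to 717 on the embryo arrays, was at least 14.9-fold higher than in donor cells, where its 5.14 lay under the Tag controls (adjusted p = 6.39e-10). DNAJC8 (2.44) and HSPA12A (3.36) were higher too. The lowest of the list, named after its values were seen, was HSPA13, an HSP70 relative of the endoplasmic reticulum, at 15.2 to 37.8 on the embryo arrays, of which 2 of 5 lay above their Tag controls, against 2153 in donor cells (at least 52.1-fold lower, adjusted p = 4.04e-07). HSPA4, of the HSP110 family like HSPH1 and named likewise, was at 281 to 344 on the embryo arrays against 3267 in donor cells (-3.42, adjusted p = 1.08e-08). HSP90 co-chaperones had 1 higher and 7 lower of 12: PTGES3, the p23 that stabilises HSP90 with its client, was at 48.1 to 114 on the embryo arrays against 2893 in donor cells (-5.06, adjusted p = 8.03e-08), and the immunophilin FKBP5 (-2.16), TTC4 (-1.55) and CDC37L1 (-1.16) were lower.

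Heat shock factors and small heat shock proteins had 0 higher and 5 lower of 8. CRYAB, a small heat shock protein related to HSPB1, was at 14.9 to 62.2 on the embryo arrays, of which 3 of 5 lay above their Tag controls, against 7263 in donor cells. With the Tag controls as floor on each embryo array it was at least 166-fold lower in embryos (adjusted p = 3.35e-09). The factor HSF2, above its Tag controls on 2 of 5 embryo arrays, had a fitted log2 change of -4.58 (adjusted p = 1.24e-05). The size of that change is uncertain, since the other embryo arrays lay under their Tag controls. HSPB11 (-4.26) and HSBP1 (-1.75), a protein that binds heat shock factors, were lower as well. HSF1, the factor that drives the heat shock response, was at 206 and 465 in anti-DJ1, 180 and 524 in IgG and 254 in non-injected embryos, against 216 in donor cells, so that its embryo arrays lay on both sides of the donor cells. Mitochondrial chaperones, import motor parts and proteases had 1 higher and 4 lower of 8, with DNAJC19 (-4.49) and YME1L1 (-4.33) lowest, and CLPB (-0.59) and LONP1 (-0.54) also lower.

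The cytosolic chaperonin TRiC, its prefoldin partners and tubulin cofactors had 5 higher and 8 lower of 15. CCT4, a TRiC subunit, was at 162 to 339 on the embryo arrays against 14135 in donor cells (-5.42, adjusted p = 1.44e-10), with VBP1 (-2.73) and CCT6A (-2.07) lower and PDCL3 (1.92) higher. Endoplasmic reticulum chaperones had 5 higher and 6 lower of 12: HSPA5, the HSP70 of that compartment, was at 2011 to 2180.03 on the embryo arrays against 16863 in donor cells (-3.01, adjusted p = 8.80e-10), PDIA3 (-2.27) and CANX (-1.99) were lower, and SDF2L1 (2.11) was higher.

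Between the trials 32 of the 76 partners passed, 21 higher and 11 lower in trial 2, and the median was 0.19. Of all tested probe sets, 18.9% were called higher and 13.4% lower, with a median of 0.14. The HSP70 family had 4 higher and 4 lower of 21, HSP90 co-chaperones 3 and 3 of 12, heat shock factors and small heat shock proteins 1 and 0 of 8, mitochondrial genes 3 and 0 of 8, TRiC and prefoldin 5 and 3 of 15, and endoplasmic reticulum chaperones 5 and 1 of 12. HSF1, with the signals given above, was the 1 gene of its list to pass (1.34, adjusted p = 5.71e-04). The 3 mitochondrial genes were GRPEL1, which exchanges nucleotide on HSPA9 (1.27), TRAP1, the mitochondrial HSP90 (1.01), and LONP1, a matrix protease (0.96). TBCB, a tubulin cofactor, was at 3536 (anti-DJ1) and 3766 (IgG) in trial 2 against 917 (anti-DJ1) and 1146 (IgG) in trial 1 (1.83, adjusted p = 1.30e-05). Among the 11 that were lower in trial 2 were CCT8 (-0.79), CCT4 (-0.95), DNAJC8 (-0.52) and DNAJB4 (-0.97).

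For each of the 10 genes the named gene with the most similar pattern was found as the one at the smallest Euclidean distance between log2 values centred on their mean over the 6 arrays, which share 5 embryo arrays that resemble each other. These were LYPLA1 for HSPA8 (distance 0.27), ZNF566 for HSPH1 (0.30), YWHAQ for HSP90AA1 (0.15), GRWD1 for HSP90AB1 (0.18), GCC2 for HSPD1 (0.20), SS18 for HSPE1 (0.22), OTUD5 for HSPA9 (0.11), SOCS4 for DNAJA1 (0.13), PHB2 for DNAJB1 (0.24) and LOC100515166 for HSPB1 (0.28). ZNF566, for one, had signals of 199 and 161 in anti-DJ1 and 189 and 188 in IgG embryos, with 85.5 on the non-injected and 206 on the donor cell array, low in non-injected embryos as HSPH1 was. Within the 10 genes the closest pair was HSPA8 and HSPD1 (0.43), and DNAJA1 lay farthest from any other, at 1.76 from HSPE1. These distances describe 6 arrays and no test was made on them.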

How the data were processed

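RNA of 5 pools of nuclear transfer embryos and of 1 culture of donor cells was hybridised to Affymetrix Porcine Genome Arrays, each sample to 1 array. Per the labels' protocols, 50 ng of RNA from each sample went through 2 rounds of amplification with biotin labelling. The authors deposited linear intensities, 1 per probe set, made with MAS5 per the submitters' processing notes. No version, scaling target, detection call or genome build is given in the sources used here. The mean of each array without the lowest and highest 2% of probe sets was 500.1 to 500.2.

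Of 24123 probe sets, 124 controls were left out. The platform annotation, which can be old, gives 1 symbol to 10069 of the rest, several to 198 and none to 13732, and only the first were named. Signals were taken to log2 after adding 4.57, their 10th percentile over all arrays, so that changes of dim probe sets are understated. The 14399 probe sets with a mean on that scale in the upper 60% (mean signal above 39.6) were tested with limma 3.58.1 (R 4.3.3; eBayes with trend) in 1 two-sided fit over the 6 arrays with terms for group and trial, and p-values were adjusted by Benjamini-Hochberg over all tested probe sets, with a threshold of 0.05. The fit has 1 residual degree of freedom, to which moderation added 10.7, and every adjusted p is from it. The trial is a block because, in the study's design, each anti-DJ1 array has the IgG array of its own trial as control; deviations of same-trial arrays from their group means correlated at r = 0.588. Embryo change against donor cells is the mean of the 3 embryo groups. The fit was tested on simulated data, where it found most changes put in but made more false calls than its threshold allows. The sizes put in are not given here. No conclusion is therefore drawn from the simulation on small changes, such as those between anti-DJ1 and IgG embryos. None is drawn either for comparisons with non-injected embryos or donor cells, which rest on 1 array. The number of arrays limits the precision.

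The 10 genes and 6 lists were chosen with earlier results of these data known. All 10 genes are named in each comparison, with every probe set against donor cells and with the brightest and some others elsewhere. From each list up to 4 genes with the smallest p per comparison are named, by the brightest probe set. Lists have counts and medians only. HSF1 and HSP70.2 are given in further comparisons as values. Alternatives were other scalings, pseudocounts and filters, no block, no trend, averaged probe sets and each replicate left out. Against donor cells, the non-injected array alone was a further alternative. The last alternative, the filter on the arithmetic mean, was chosen after seeing the data. Neighbouring genes and synonyms come from the RefSeq table of Sscrofa11.1, from which no coordinates are given. No sequences are shown.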

Additional observations from a re-analysis of the deposited data

How the results depend on the processing

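Probe sets called in anti-DJ1 against IgG embryos were 0 in the fit reported, 1 with a common 75th percentile, 1 with a pseudocount at the 25th percentile and 43 with only the upper 40% tested, and 0 of the 10 genes passed in any of these. In IgG against non-injected embryos the count was 312 (75th percentile), 447 (25th percentile pseudocount), 48 (no filter), 726 (upper 40%), 67 (arithmetic mean), 43 (probe sets averaged per gene) and 0 without the replicate block or the trend. Genes called were then 2 with the larger pseudocount and with the upper 40%, and 0 without the replicate block or the trend. In anti-DJ1 against non-injected embryos it was 182 (quantile), 467, 589, 71, 878, 148 and 106 under the same settings, and 0 without the replicate block or the trend, with 2 genes under the larger pseudocount, 3 with the upper 40%, and 0 without block or trend. In embryos against donor cells 3 of the 10 genes passed without the replicate block. Between trials 4651 probe sets and 6 genes passed in the fit reported, and 0 of each without the trend.

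The values that changed sign without the replicate block were HSPA8 (-0.010) and HSPB1 (0.32) in IgG, and HSP90AA1 (-0.048), HSPB1 (0.031) and HSPD1 (-0.094) in anti-DJ1 against non-injected embryos. With probe sets averaged, HSPA9 and DNAJA1 were 0.060 and -0.037 in IgG and 0.042 and -0.066 in anti-DJ1 against non-injected embryos, HSPA9 was -0.044 against donor cells, and between trials they were 0.042 and -0.17. Under other scalings, HSP90AB1 was -0.0066 (quantile) and -0.0087 (75th percentile) in anti-DJ1 against non-injected embryos, DNAJA1 was 0.033 (quantile) in anti-DJ1 against IgG embryos, HSPB1 was 0.094 and 0.19, HSPA9 -0.20 (quantile) and HSPH1 0.34 (75th percentile) against donor cells, and between trials HSPA9 was 0.13 (quantile) and DNAJA1 -0.20 (75th percentile). The scalings moved the median of all probe sets between trials by -0.15 and -0.24. The cause of these changes was not tested.

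Leaving out 1 array left no residual degree of freedom with the block, so these fits have none, and trials are unbalanced in them. In anti-DJ1 against IgG embryos, where 0 passed, the 10 genes ranged from -0.19 to 0.54 (HSPA8), -0.31 to 0.011 (HSPH1), -0.27 to 0.085 (HSP90AA1), -0.48 to 0.18 (HSP90AB1), -0.98 to 0.40 (HSPB1), -0.012 to 0.45 (HSPD1), -0.40 to 0.43 (HSPE1), -0.20 to 0.031 (HSPA9), -0.11 to 0.0066 (DNAJA1) and -0.74 to 0.72 (DNAJB1). In IgG against non-injected embryos 0 probe sets passed, and HSPA8 ranged from -0.38 to 0.35, HSP90AA1 from -0.13 to 0.22, HSPB1 from 0.027 to 0.61 and HSPH1 from 0.81 to 1.13. In anti-DJ1 against non-injected embryos 0 to 1 probe sets and 0 of the 10 genes passed, and HSPA8 ranged from -0.073 to 0.40, HSP90AA1 from -0.23 to 0.13, HSP90AB1 from -0.0085 to 0.66, HSPB1 from -0.66 to 0.72, HSPD1 from -0.17 to -0.014 and HSPH1 from 0.67 to 0.96. Against donor cells 3 to 4 of the 10 genes passed, and HSPB1 ranged from -0.34 to 0.12.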
